A study of Schizosaccharomyces pombe with 18 samples.

Results

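The small nucleolar RNAs (snoRNAs) and spliceosomal small nuclear RNAs (snRNAs) of fission yeast, Schizosaccharomyces pombe, were followed across 6 genotypes. The members were taken from the deposited expression table by ID: every row whose ID starts with SPSNORNA or SPSNRNA, at any level. This gave 60 of 7018 genes, 53 with an SPSNORNA and 7 with an SPSNRNA ID. All 60 were detected in every library, the lowest with 8 reads, and all 60 passed the filter on low values, so no member was left out.

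snoRNAs work in the nucleolus as guides. Box C/D snoRNAs carry a box C and a box D sequence and pair with ribosomal RNA to direct 2′-O-methylation. Box H/ACA snoRNAs end in a short tail after an ACA trinucleotide and direct pseudouridylation, and a few snoRNAs of both kinds are needed for cleavage of the ribosomal RNA precursor instead of for its modification. The snRNAs U1, U2, U4, U5 and U6 form the core of the spliceosome, which removes the many introns of S. pombe genes.

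The deletion strains lacked a subunit of SHREC, a nuclear complex that joins the histone deacetylase Clr3, the zinc finger protein Clr1, Clr2, the remodelling ATPase Mit1 and the HP1 family protein Chp2, and that is known for silencing heterochromatin. The 5 deletions were clr1D (clr1D::KanMX4), clr2D (clr2D::his7+), clr3D (clr3D::kanMX6), mit1D (mit1D::Natmx6) and chp2D (chp2D::KanR), and the sixth group was wild type (WT), with 3 biological replicates in each. Every strain was h- and carried leu1-32 with ura4-D18. The ade6 allele was ade6-210 in clr3D, mit1D, chp2D and WT and ade6-216 in clr2D, and for clr1D the labels leave it open between these alleles. The arg3 and his3 loci are written arg3D and his3D for clr1D, clr2D and clr3D, and arg3-D4 and his3-D1 for mit1D, chp2D and WT. The labels give 1 strain for each genotype, so strain and deletion cannot be told apart. Cultures of 25 ml grew in rich YES medium at 25 °C. Ribosomal RNA was removed before stranded total RNA libraries were made.

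Facts of the libraries bear on all values below. Depth recovered from the table was 26.17 M to 46.49 M (mega) reads in the mit1D and chp2D libraries and 35.35 M to 101.85 M in the others. The mit1D and chp2D libraries also carry names of another form in the labels, so library series and deletion cannot be told apart when either of them is set against WT or against the clr deletions. The targeted gene was at its lowest in its own deletion in each case: clr1 at 2.22 to 2.6 scaled FPKM in clr1D libraries against 12.1 to 13.5 in the other libraries, clr2 at 14.7 to 15.4 in clr2D against 18.2 to 30.7, clr3 at 3.89 to 5.65 in clr3D against 33.2 to 36.9, mit1 at 0.00774 to 0.0243 in mit1D against 12.9 to 14.1, and chp2 at 3.81 to 4.24 in chp2D against 12.4 to 14.4. Reads on the clr2 gene were thus reduced and not lost in clr2D. The M-type pheromone gene mfm2 was at 38.5 to 109 scaled FPKM over all libraries, and the P-type gene map2 at 31.6 to 36.8, so markers of both mating types were read in strains that the labels give as h-. mfm2 was called lower in clr1D (46.1 ± 9.28), clr2D (50.4 ± 9.23), mit1D (62.1 ± 1.59) and chp2D (61.2 ± 8.44), against 98.5 ± 5.46 scaled FPKM in WT (SD, n = 3), and the part of this in the results was not tested. Of the 5 M-type markers listed, 1 was called in each of clr1D, clr2D and mit1D and 2 in chp2D, all lower. Their median log2 fold change was -0.06 in clr1D, -0.01 in clr2D, -0.12 in mit1D and -0.18 in chp2D. In these bulk cultures, fewer cells of a type and less RNA per cell cannot be told apart.

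Levels are given as scaled FPKM: the authors' FPKM, a read count set against transcript length and library depth, divided by 1 factor for each library. A gene was called changed at an adjusted p under 0.05 in 1 limma fit over all 18 libraries and 6693 genes. The fit was on log2(scaled FPKM + 1), without a term for the replicate number. Fold changes are on that log2 scale, as the deletion minus WT, with the SE in brackets, and understate the change of low genes.

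By RefSeq product and by sequence motif, 28 members were box C/D snoRNAs, 19 were box H/ACA snoRNAs, 2 were the U3 genes snu3 and snu32, 5 were snRNAs, and 6 snoRNAs stayed unclassified. Of the 28, 18 held an exact TGATGA box C and all 28 a CTGA box D within 13 bases of the end; of the 19, 14 held an ACA near the end. The classes also differ in transcript length in the table, at 73 to 300 bases for C/D, 142 to 273 for H/ACA and 425 to 799 for the snRNAs, so class and length cannot be told apart. Short RNAs are poorly caught by such libraries, and FPKM of RNAs of different length are compared here only as a description. In WT, the median member was at 97.4 scaled FPKM, against 0.344 for the 171 tRNA genes, 37 of which were at 0 in all libraries. The highest members in WT were sno16 at 1880 ± 171, snR30, the U17 snoRNA, at 1840 ± 320, and snu3, a U3 gene, at 1830 ± 179 scaled FPKM (SD, n = 3). The lowest were snr62 at 12.3 ± 4.84, snoR54b at 9.88 ± 5.73 and snu5, the U5 snRNA, at 5.77 ± 2.42 scaled FPKM. Across the 60 members, log2 level in WT and log2 length had a Pearson r of 0.34 and a Spearman rho of 0.35, over genes that share the same libraries.

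**Figure D1:**
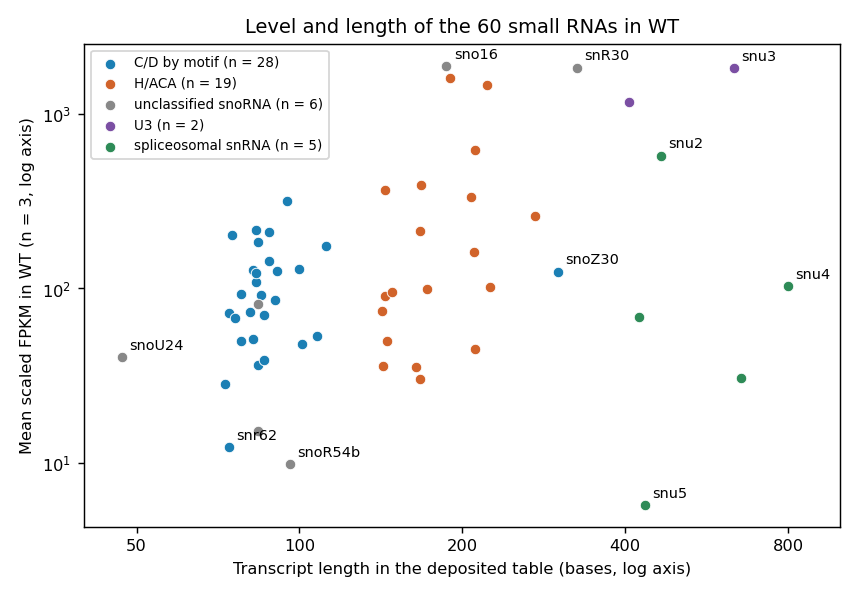
Mean scaled FPKM in WT (log axis, n = 3) against transcript length in the deposited table (bases, log axis), 1 point per member, coloured by class. The C/D snoRNAs lie at the short end and the snRNAs at the long end, from snu5 at 5.77 to snu2 at 576 scaled FPKM.

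For 9 members the table's length was not that of the gene interval in RefSeq (ASM294v3), which shifts their FPKM. The table gave U4 799 bases against 127 in RefSeq, U1 654 against 149, U5 435 against 120, U6 425 against 144, U2 466 against 187, snu3 636 against 256, snu32 407 against 255 and snoZ30 300 against 95. Only snR90 was shorter in the table, at 225 bases against 488. FPKM of the snRNAs is therefore spread over a length 2.49 to 6.29 times that of the RefSeq interval. Their order of levels was not read as an order of abundance.

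Summed by class, C/D snoRNAs, H/ACA snoRNAs and snRNAs were mostly at lower levels in the deletions than in WT. The sums of snRNAs and H/ACA snoRNAs were lowest in mit1D and chp2D, and that of C/D snoRNAs was higher than in WT in clr3D. Summed over the 19 H/ACA snoRNAs, the 3 libraries of each group were at 3771 to 4798 scaled FPKM in mit1D, 4568 to 4783 in chp2D, 4974 to 5412 in clr1D, 4943 to 5447 in clr2D and 5670 to 6669 in clr3D, against 5716 to 6591 in WT. Summed over the 5 snRNAs they were at 517.9 to 591 in mit1D, 580.6 to 612.6 in chp2D, 639.1 to 762.4 in clr1D, 625.5 to 717.5 in clr2D and 657.9 to 714.9 in clr3D, against 747.6 to 853.9 in WT. The 28 C/D snoRNAs summed to 3371 to 3523 in clr3D, 2776 to 2887 in mit1D, 2726 to 2771 in chp2D, 2669 to 2750 in clr1D and 2614 to 2813 in clr2D, against 2891 to 3217 in WT. Of these 15 ranges, 1 lay above the WT range, that of C/D snoRNAs in clr3D. Another 2 overlapped it, those of H/ACA snoRNAs in clr3D and of snRNAs in clr1D, and the other 12 lay below it. All 15 are set against the same WT libraries, and U3 and the unclassified snoRNAs are not among them. The U3 genes summed to 2290 to 2419 in mit1D, below the 2656 to 3291 of WT, and each other deletion overlapped WT. The unclassified snoRNAs summed to 2598 to 2940 in mit1D and 2918 to 3050 in chp2D. Both lay below the 3509 to 4409 of WT, and each clr deletion overlapped WT. The 270 other genes of similar length that are not tRNA genes summed to 51940 to 52930 in mit1D and 51680 to 52170 in chp2D, within the 50980 to 53520 of WT. Their sums reached higher in the clr deletions, at 53390 to 56860 in clr3D, 52210 to 54090 in clr1D and 52010 to 54450 in clr2D, and the part of this in the clr3D result was not tested. Reads on tRNA genes were lower too, with sums of 189.7 to 221.3 in mit1D and 201.1 to 237.3 in chp2D, against 245.6 to 274.3 in WT, and their part in the result was not tested.

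**Figure D2:**
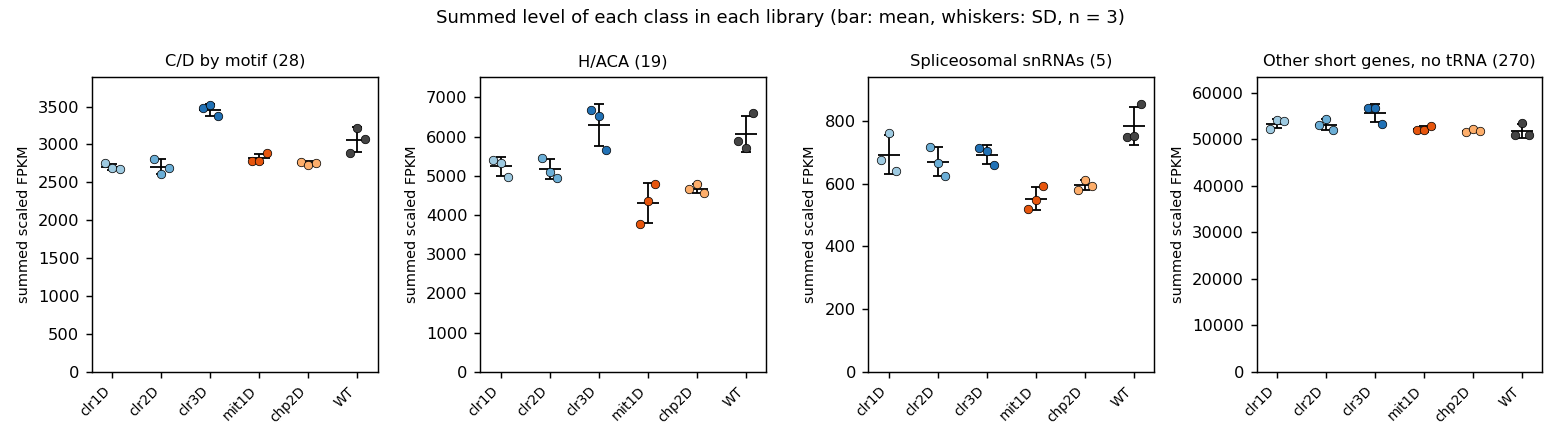
Summed scaled FPKM of C/D snoRNAs, H/ACA snoRNAs, snRNAs and other short genes in each library (points), with the group mean and SD (n = 3), axes from 0. In the H/ACA and snRNA panels the mit1D and chp2D points lie below all WT points, and in the C/D panel the clr3D points lie above them.

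In mit1D, 28 of 60 members were lower than in WT and 3 higher, which is 46.7% and 5% of them, against 12.5% lower and 14.7% higher among all genes tested. In chp2D, 23 were lower (38.3%) and 2 higher (3.33%), against 10.7% lower and 12% higher among all genes. In clr3D, 12 were higher (20%) and 2 lower (3.33%), against 14.9% and 14.1% of all genes. In clr1D, 12 were lower (20%, against 8.29% of all genes, with 9.31% higher), and in clr2D 7 were lower (11.7%, against 4.99%, with 7.31% higher). No member was called higher in clr1D or clr2D by limma, none was higher there at an unadjusted p under 0.05, and limma voom on recovered reads called none higher either. The median log2 fold change over the 60 members was -0.26 in mit1D, -0.21 in chp2D, 0.06 in clr3D, -0.16 in clr1D and -0.20 in clr2D, and over all genes it was -0.01 to 0.00. The split of calls over all genes moved with the scaling, while that of the members stayed within 10 percentage points: 54.1% of all calls in mit1D were higher, against 39.5% with FPKM as deposited and 64.7% when scaled on short genes, and in chp2D these were 52.9%, 32.9% and 67%. The 5 deletions share the WT libraries, so their values are set side by side and not counted as separate evidence.

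**Figure D3:**
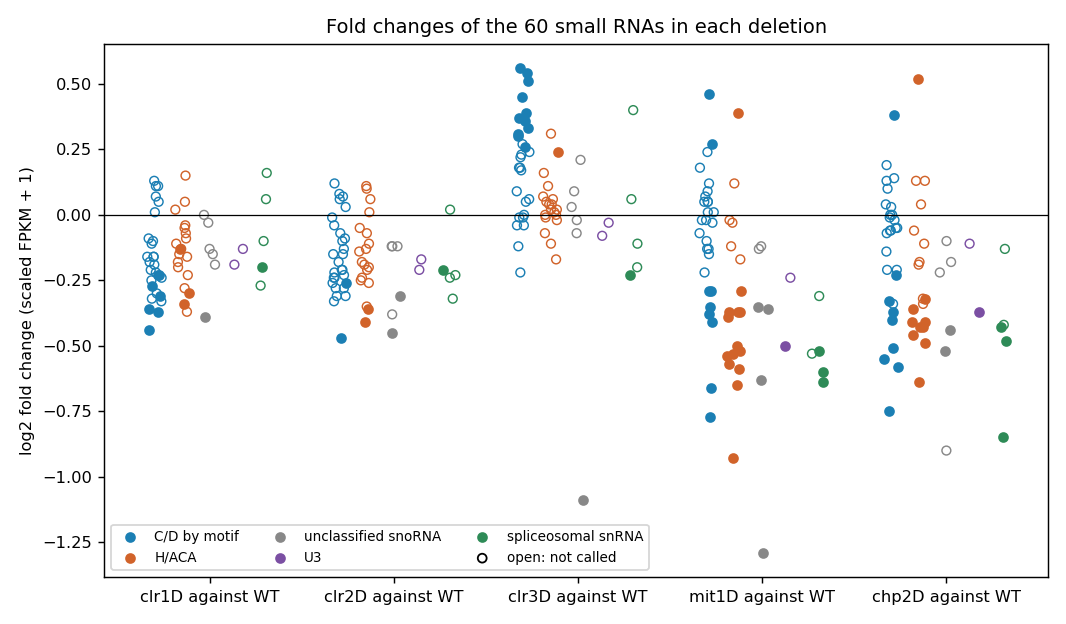
Log2 fold change against WT (vertical axis, log2 of scaled FPKM + 1) of the 60 members in each deletion, coloured by class, filled where called and open where not. In mit1D and chp2D most filled points lie below 0, in clr3D most lie above 0, and in clr1D and clr2D all lie below 0.

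Among the spliceosomal RNAs, U1 and U2 fell in both mit1D and chp2D, U6 fell in mit1D, and U5 fell in chp2D. Of the 5 snRNAs, 3 were called in each of these deletions, all lower, with a median log2 fold change of -0.53 in mit1D and -0.43 in chp2D. That is 60% in each, against 12.5% of all genes lower in mit1D and 10.7% in chp2D. The RNAs are shown with the stretch by which they pair with introns or with each other in capitals. U1 (snu1) finds the 5′ splice site with its first bases, U2 (snu2) pairs with the branch point through the bases shown, and U6 (snu6) holds the ACAGAG box that takes over the 5′ splice site in the active spliceosome. Their RefSeq intervals in ASM294v3 are chrII:3020205-3020353 (+) for snu1, chrI:959370-959556 (-) for snu2 and chrI:2562276-2562419 (-) for snu6, and the sequence is genomic, so it includes the intron that the S. pombe U6 gene is known for.

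snu1: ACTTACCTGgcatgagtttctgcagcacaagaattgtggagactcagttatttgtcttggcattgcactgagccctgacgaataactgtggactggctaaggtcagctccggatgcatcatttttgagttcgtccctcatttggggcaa

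snu2: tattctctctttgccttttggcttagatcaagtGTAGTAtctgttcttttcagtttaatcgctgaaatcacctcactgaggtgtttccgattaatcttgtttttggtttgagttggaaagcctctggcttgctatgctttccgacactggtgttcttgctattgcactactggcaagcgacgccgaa

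snu6: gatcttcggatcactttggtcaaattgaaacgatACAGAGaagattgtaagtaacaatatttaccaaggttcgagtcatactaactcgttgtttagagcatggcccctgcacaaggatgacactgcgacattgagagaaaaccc

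U1 was at 19.5, 19.7 and 20.1 scaled FPKM in mit1D and 20.9, 22.6 and 21.6 in chp2D, against 26.6, 29.2 and 36.7 in WT. All 6 libraries of the deletions lay below the lowest WT library. The log2 fold change was -0.60 (SE 0.09, adjusted p = 0.00015) in mit1D and -0.48 (SE 0.09, adjusted p = 0.0012) in chp2D. U2 was at 388, 397 and 420 scaled FPKM in mit1D and 412, 440 and 429 in chp2D, against 550, 559 and 620 in WT, again with no overlap. Its log2 fold change was -0.52 (SE 0.06, adjusted p = 2.8e-05) in mit1D and -0.43 (SE 0.06, adjusted p = 0.0002) in chp2D.

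U2 was also called lower in the 3 clr deletions, by less. It was at 500, 491 and 482 scaled FPKM in clr3D libraries. The clr1D libraries were at 478, 556 and 471, and those of clr2D at 526, 503 and 467. The log2 fold change was -0.23 in clr3D (adjusted p = 0.012), -0.20 in clr1D (adjusted p = 0.036) and -0.21 in clr2D (adjusted p = 0.04). Each of these calls was lost without the third WT library, the highest one, where the adjusted p was 0.063 in clr3D, 0.15 in clr1D and 0.16 in clr2D. With the replicate number as a block in the libraries of the clr deletions and WT, the calls in clr1D (adjusted p = 0.056) and clr2D (adjusted p = 0.059) were also lost.

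U6, transcribed by RNA polymerase III, was at 34.6, 45.7 and 50.7 scaled FPKM in mit1D and 52.9, 52.7 and 45.7 in chp2D, against 65.8, 57.3 and 82.1 in WT. The groups did not overlap. The log2 fold change of -0.64 (SE 0.15, adjusted p = 0.0054) in mit1D was called, and that of -0.42 in chp2D was not (adjusted p = 0.054). U5, the least read of the snRNAs with 26 to 338 reads a library, was at 2.37, 2.35 and 3.03 scaled FPKM in chp2D, against 6.67, 3.03 and 7.61 in WT. Its highest chp2D library and its lowest WT library lay side by side. In chp2D the log2 fold change was -0.85 (SE 0.25, adjusted p = 0.022), and the adjusted p was 0.11 without the third WT library and 0.08 without the first. In mit1D, U5 was at 3.76, 2.67 and 4.01 scaled FPKM, with a log2 fold change of -0.53 that was not called (adjusted p = 0.12). U4, the partner of U6 before activation, was at 72.1, 81.5 and 96.1 in mit1D and 92.5, 95.3 and 93.8 in chp2D, against 98.9, 101 and 107 in WT. It was called in none of the 5 deletions, with an adjusted p of 0.068 in mit1D.

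Parts of the table's snRNA intervals lie in other genes, so some of these reads may come from them. The interval of U4 overlaps met17, whose log2 fold change was 0.56 in mit1D and 0.58 in chp2D, opposite in sign to that of U4. Those of U1 and U6 overlap gpt2 and cwf21, neither of which was called in mit1D or chp2D.

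U3, the snoRNA that pairs with the 5′ region of the ribosomal RNA precursor for its first cleavages, is encoded by snu3 and snu32. The snu32 RNA fell in mit1D and chp2D, and snu3 was not called in any deletion. In mit1D, snu32 was at 730, 863 and 873 scaled FPKM and in chp2D at 840, 927 and 924, against 1023, 1162 and 1316 in WT, with no overlap. Its log2 fold change was -0.50 (SE 0.11, adjusted p = 0.0027) in mit1D and -0.37 (adjusted p = 0.018) in chp2D, and the chp2D call was lost without the third WT library (adjusted p = 0.098) or the first chp2D library (adjusted p = 0.076). For snu3 the libraries were at 1559, 1552 and 1546 in mit1D and 1578, 1739 and 1774 in chp2D, against 1633, 1896 and 1975 in WT. Its log2 fold change in mit1D was -0.24 (adjusted p = 0.053). The table's snu3 interval overlaps tif308, a translation initiation factor gene that was called lower in both, by -0.13 in mit1D and -0.10 in chp2D. The difference between the 2 genes was not tested.

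Of the H/ACA snoRNAs, 13 of 19 fell in mit1D and 1 rose, with a median log2 fold change of -0.37. In chp2D 9 of 19 fell and 1 rose, with a median of -0.32. The share of the class called was 73.7% in mit1D and 52.6% in chp2D, against 27.2% and 22.6% of all genes. The largest fall was that of sno20, which RefSeq relates to snR35. It is shown with snR46, another member whose groups did not overlap. Capitals mark the ACA near the end, which was not found at that place in sno20. The intervals in ASM294v3 are chrII:2411190-2411361 (+) for sno20 and chrIII:1717920-1718087 (-) for snR46.

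sno20: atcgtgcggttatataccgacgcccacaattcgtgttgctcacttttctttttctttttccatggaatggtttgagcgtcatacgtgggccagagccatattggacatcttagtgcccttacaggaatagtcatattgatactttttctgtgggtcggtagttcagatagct

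snR46: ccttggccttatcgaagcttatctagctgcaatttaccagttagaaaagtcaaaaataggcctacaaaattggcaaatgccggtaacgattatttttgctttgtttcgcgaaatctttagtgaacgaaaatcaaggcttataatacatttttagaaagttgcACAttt

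In mit1D, sno20 was at 45.5, 52.3 and 57.7 scaled FPKM, and in chp2D at 63.1, 63.0 and 63.6, against 94.96, 93.9 and 110 in WT. The mit1D mean was 52.1% and the chp2D mean 63.5% of the WT mean, and no library of either deletion reached the WT range. The log2 fold change was -0.93 (SE 0.11, adjusted p = 2.5e-05) in mit1D and -0.64 (SE 0.11, adjusted p = 0.00076) in chp2D, and 0.00 in clr3D. The gene lies antisense to an exon of SPBC1921.04c, and its reads were 98.9% as many as those of that gene in the first WT library, so the values of the overlapping pair cannot be told apart.

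Other H/ACA members fell by like amounts. For snR46, named here and below like snR42 and snR95 after its values were seen, the libraries were at 235, 245 and 306 scaled FPKM in mit1D and 274, 280 and 282 in chp2D, against 394, 376 and 410 in WT. The fitted log2 fold change was -0.59 (SE 0.09, adjusted p = 0.00017) in mit1D and -0.49 (SE 0.09, adjusted p = 0.00092) in chp2D, with no overlap between groups. The abundant sno12 was at 849, 1083 and 1152 scaled FPKM in mit1D and 1199, 1223 and 1071 in chp2D, against 1582, 1476 and 1741 in WT. Its log2 fold changes were -0.65 (SE 0.13, adjusted p = 0.0016) and, in chp2D, -0.46 (adjusted p = 0.016). snR42 fell by 0.57 in mit1D and by 0.43 in chp2D, and snR95 by 0.50 and 0.41 in the same order, all on the log2 scale. snR101 changed with the smallest spread: it was at 197, 202 and 194 scaled FPKM in mit1D and 187, 191 and 199 in chp2D, against 258, 251 and 268 in WT, with an adjusted p of 5e-06 in mit1D and 3e-06 in chp2D.

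A single H/ACA member, snR96, rose in both. It was at 54.9, 62.1 and 61.3 scaled FPKM in mit1D and 63.5, 68.3 and 64.2 in chp2D, against 49.5, 45.6 and 40.8 in WT, and the groups did not overlap. The log2 fold change was 0.39 (SE 0.12, adjusted p = 0.029) in mit1D and 0.52 (SE 0.12, adjusted p = 0.007) in chp2D. The mit1D call was lost without any of 4 libraries, with adjusted p up to 0.12 without the third WT library. The interval of snR96 overlaps tim17, which codes for a mitochondrial import subunit and whose log2 fold change was 0.34 in both, not called.

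The stretch before sno20 is shown since HomolD (CAGTCACA) and HomolE boxes are known from promoters of S. pombe ribosomal protein genes. The window runs from 250 bases before to 50 after the start, chrII:2410940-2411239 (+) in ASM294v3. CAGTCACA begins at position -48 on the same strand, the HomolE box at -66 on the other strand, and TATAAA at -34, all in capitals. Both strands were searched, and none of these matches overlaps another. A further TATAAA, at -140 on the other strand, is not marked.

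sno20 promoter: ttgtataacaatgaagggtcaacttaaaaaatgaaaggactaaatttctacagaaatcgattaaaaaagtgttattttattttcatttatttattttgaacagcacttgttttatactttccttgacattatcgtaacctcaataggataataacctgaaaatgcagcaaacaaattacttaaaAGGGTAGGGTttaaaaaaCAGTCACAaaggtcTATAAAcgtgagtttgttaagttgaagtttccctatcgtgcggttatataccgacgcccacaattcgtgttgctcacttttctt

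CAGTCACA was found in the same window of 11 of the 60 members (18.3%), against 208 of 12613 RefSeq promoters (1.65%). These 11 were sno20, snR42, snR46, snR90, snR41, snoR02, snoR56, snoR69, snoZ15, snu3 and snu4. The HomolE box was in 2 of 60 (3.33%), sno20 and snu4, against 0.698% of all, and TATAAA in 32 of 60 (53.3%), against 45.2%. A match describes letters in the window, not a bound site.

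Among the C/D snoRNAs, changes in mit1D and chp2D went both ways and concerned single members: 7 of 28 fell and 2 rose in mit1D, and 8 fell and 1 rose in chp2D. Their median log2 fold changes were -0.02 and -0.06 in the same order. The share of the class called was 32.1% in each, against 27.2% of all genes in mit1D and 22.6% in chp2D. Among all genes, 12.5% were lower and 14.7% higher in mit1D, and 10.7% lower and 12% higher in chp2D. The members shown are those with the largest falls and the pairs with like names that moved apart. Capitals mark box C, with at most 1 base different from TGATGA, and box D. Their intervals in ASM294v3 are chrII:1308634-1308745 (+) for snoU14, chrI:4154912-4155002 (+) for snoR69b, chrI:5387559-5387641 (+) for snoR69, chrI:2440336-2440418 (+) for snoU24b and chrI:5369640-5369686 (-) for snoU24.

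snoU14: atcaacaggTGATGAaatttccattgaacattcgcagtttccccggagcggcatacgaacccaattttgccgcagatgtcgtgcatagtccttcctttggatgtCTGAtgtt

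snoR69b: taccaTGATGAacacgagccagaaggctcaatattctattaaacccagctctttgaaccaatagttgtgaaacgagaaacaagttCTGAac

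snoR69: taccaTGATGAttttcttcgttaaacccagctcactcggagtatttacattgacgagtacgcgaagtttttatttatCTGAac

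snoU24b: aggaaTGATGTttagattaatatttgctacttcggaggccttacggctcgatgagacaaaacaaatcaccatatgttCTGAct

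snoU24: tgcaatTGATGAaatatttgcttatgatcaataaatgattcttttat

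snoU14, known from budding yeast for its part in processing of 18S ribosomal RNA, was at 112, 102 and 114 scaled FPKM in mit1D and 109, 121 and 118 in chp2D, against 185, 184 and 152 in WT. All 6 deletion libraries lay below WT, and its log2 fold change was -0.66 (SE 0.14, adjusted p = 0.0035) in mit1D and -0.58 (SE 0.14, adjusted p = 0.0095) in chp2D. snoR56 fell in mit1D (log2 fold change -0.38, adjusted p = 0.0035), chp2D (-0.55, adjusted p = 0.00027) and clr1D (-0.37, adjusted p = 0.0056), and rose in clr3D (0.31, adjusted p = 0.012). Its libraries were at 89.2, 94.7 and 107 scaled FPKM in mit1D, 85.5, 90.5 and 81.6 in chp2D, 99, 97.2 and 95.1 in clr1D and 164, 165 and 140 in clr3D, against 110, 133 and 136 in WT. snR70 was called lower in chp2D, at 36.2, 34.9 and 40.7 against 48.6, 57.3 and 54.9 in WT (log2 fold change -0.51, SE 0.08, adjusted p = 0.00046).

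snoR69b fell in mit1D and chp2D while snoR69 was not called in either. snoR69b was at 60.8, 76.7 and 84.4 scaled FPKM in mit1D and 73.9, 74.6 and 75.2 in chp2D, against 135, 114 and 131 in WT, and at 120 to 149 in the 9 libraries of the clr deletions. On the log2 scale it changed by -0.77 (SE 0.09, adjusted p = 2.8e-05) in mit1D and -0.75 (SE 0.09, adjusted p = 5.1e-05) in chp2D. snoR69 was at 121, 124 and 122 in mit1D and 121, 120 and 110 in chp2D, against 103, 135 and 128 in WT, with log2 fold changes of 0.01 and -0.05. The ratio of snoR69b to snoR69 was 0.504 to 0.689 in mit1D libraries and 0.613 to 0.683 in chp2D libraries, against 0.846 to 1.31 in WT libraries. It was 1.38 to 1.48 in clr1D, above WT, 1.3 to 1.4 in clr2D and 0.717 to 1.04 in clr3D. The pair was chosen for moving apart, so mit1D and chp2D ratios outside the WT range follow from the choice. The RNAs share the 13 bases TTAAACCCAGCTC and are identical at 51.8% of aligned positions.

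snoU24b and snoU24 moved in opposite directions in mit1D and chp2D. U24 snoRNAs guide methylation of the large ribosomal RNA. snoU24b was at 149, 153 and 147 scaled FPKM in mit1D and 153, 137 and 137 in chp2D, against 109, 110 and 108 in WT. Its log2 fold change was 0.46 (SE 0.05, adjusted p = 1.5e-05) in mit1D and 0.38 (SE 0.05, adjusted p = 9e-05) in chp2D. It also rose in clr3D, at 144, 137 and 140 scaled FPKM (0.36, SE 0.05, adjusted p = 0.00011). snoU24 was at 31.1, 29.8 and 32.5 in mit1D and 25.3, 30.9 and 32.8 in chp2D, against 38.4, 41.5 and 41.2 in WT, and was called lower in mit1D (log2 fold change -0.36, adjusted p = 0.017) and chp2D (-0.44, adjusted p = 0.0073). The ratio of snoU24b to snoU24 was 4.54 to 5.12 in mit1D and 4.18 to 6.05 in chp2D, against 2.61 to 2.83 in WT. It also lay above WT in clr1D (3.27 to 3.94) and clr2D (3.48 to 4.28), and in clr3D it was 2.77 to 3.34. This pair was also chosen for moving apart, so such ratios follow from the choice. The ratio of snoR39a to snoR39b was 0.728 to 0.96 in mit1D and 0.743 to 0.805 in chp2D, against 0.671 to 0.79 in WT. That of snoR54b to snoR54 was 0.0375 to 0.055, 0.0513 to 0.0963 and 0.0529 to 0.19 in the same order. Both overlapped WT. snoU24b lies in an intron of cpc2, a ribosome component gene that was not called in mit1D or chp2D, and snoU24 in an intron of spt20, called lower by -0.15 in mit1D and -0.16 in chp2D. The RefSeq snoU24 entry ends after 47 bases, and no CTGA was found at its end. By the motif rule it is therefore counted with the unclassified snoRNAs, not with the C/D class.

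The third member that rose in mit1D was snoZ5, at 102.4, 105.1 and 125.5 scaled FPKM in mit1D, against 86.4, 102 and 86.7 in WT. Its log2 fold change of 0.27 (adjusted p = 0.047) was just past the threshold. The call was lost when any of 10 libraries was left out, with adjusted p up to 0.21 without the third mit1D library.

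**Figure D4:**
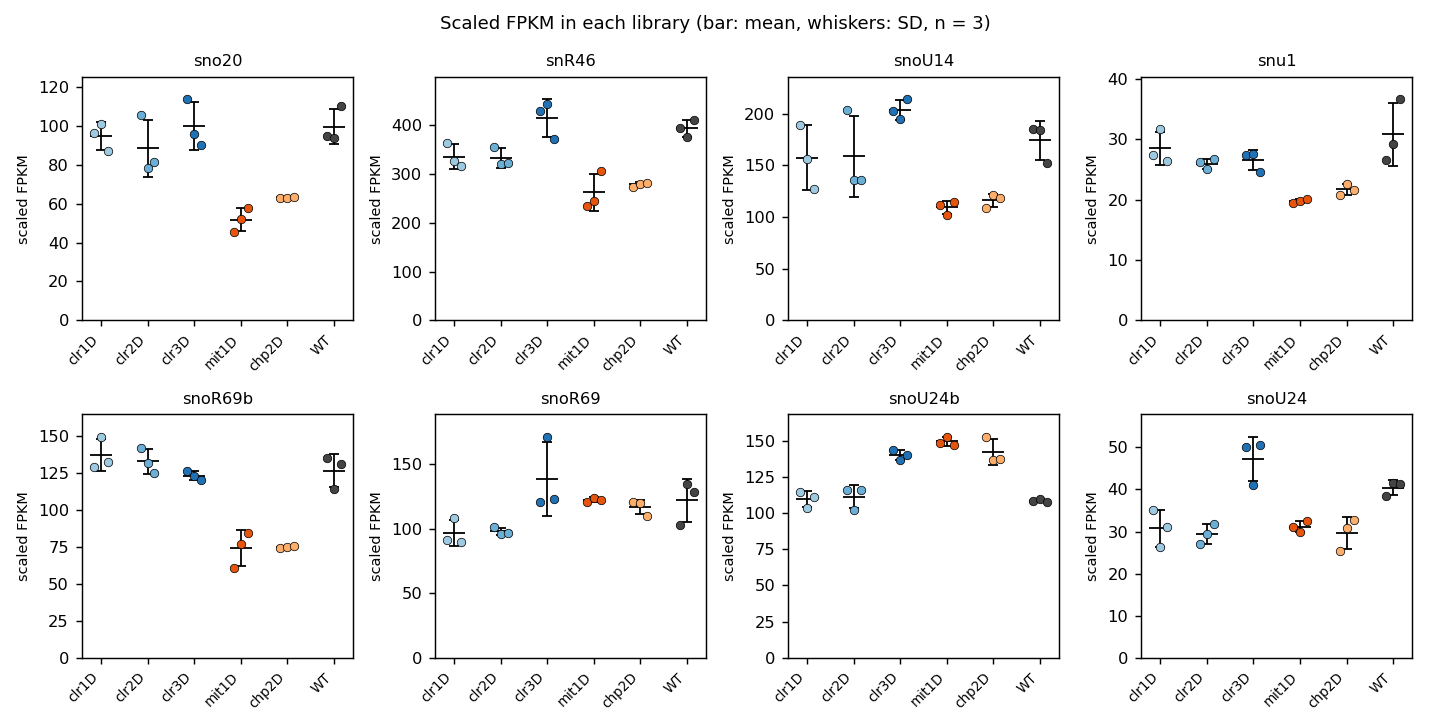
Scaled FPKM of 8 members in each library (points; bar and whiskers: mean and SD, n = 3; axes from 0). The mit1D and chp2D points of sno20, snR46, snoU14, snu1 and snoR69b lie below all WT points, those of snoU24b above them, and those of snoR69 among them.

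Of the 6 snoRNAs that neither product nor motif placed in a class, 4 fell in mit1D (66.7%, against 12.5% of all genes lower). In chp2D 2 of them fell (33.3%, against 10.7%). They include snoU24, described above. snR30, the U17 RNA that is known for its part in 18S ribosomal RNA processing, was at 1141, 1179 and 1204 scaled FPKM in mit1D and 1229, 1281 and 1291 in chp2D, against 1656, 1648 and 2207 in WT. The log2 fold change was -0.63 (SE 0.09, adjusted p = 0.00012) in mit1D and -0.52 (SE 0.09, adjusted p = 0.00073) in chp2D, and its reads make up 99.9% of those of the overlapping SPNCRNA.906 in the first WT library. sno16 was at 1340, 1499 and 1604 in mit1D, against 1713, 1886 and 2055 in WT (log2 fold change -0.35, SE 0.08, adjusted p = 0.0051), and was not called in chp2D (-0.22, adjusted p = 0.057).

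snoR54b had the largest fold change of any member and the fewest reads, 8 to 147 a library. It was at 2.90, 3.21 and 2.73 scaled FPKM in mit1D and 3.81, 4.19 and 2.75 in clr3D, against 3.68, 11.0 and 14.99 in WT. The WT libraries thus differed among themselves by more than the deletions differed from the lowest of them. The log2 fold changes of -1.29 in mit1D (SE 0.37, adjusted p = 0.016) and -1.09 in clr3D (SE 0.37, adjusted p = 0.036) were not called by limma voom on recovered reads (adjusted p = 0.067 and 0.081), nor without the third WT library (adjusted p = 0.089 and 0.17).

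Between mit1D and chp2D no member was called by limma, against 0.164% of all genes, or 11 genes, of which 0.0896% were higher and 0.0747% lower in mit1D. At an unadjusted p under 0.05 limma gave 4 members, 2 higher and 2 lower in mit1D. That number was 16 when these groups were fitted alone, 13 without the third mit1D library and 1 by limma voom, with no member called in any of them. Of the 19 H/ACA snoRNAs 17 had a log2 fold change below 0 in mit1D against chp2D, with a median of -0.11. Of the 28 C/D snoRNAs 20 had one above 0, with a median of 0.07. Among all genes tested 3280 lay below 0 and 3413 above. The members share the same libraries and are not replicates. The H/ACA sums were 3771, 4350 and 4798 scaled FPKM in mit1D, a range that overlapped the 4568 to 4783 of chp2D. The missing calls do not show that the deletions of the remodeller and of the HP1 protein act alike. Against clr1D, clr2D and clr3D together, mit1D and chp2D had 29 members lower and 5 higher, 48.3% and 8.33% of them, against 29.2% and 28.4% of all genes, or 57.6% changed in all. Library series and deletion cannot be told apart in this comparison.

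In clr3D, the deletion of the deacetylase, C/D snoRNAs rose, with a median log2 fold change of 0.23. Of the 28, 11 were called, all higher (39.3%, against 14.9% of all genes higher). The cluster of 5 snoRNAs snoZ8, snoZ7, snoZ5, snoZ4 and snoZ3, all within the exon of 1 non-coding RNA gene, snoZ (SPNCRNA.659), was called as a whole. Such clusters are cut from 1 precursor. The RNAs are shown in their order on chromosome I, with box C and box D in capitals, at chrI:526726-526803, chrI:526937-527036, chrI:527191-527275, chrI:527387-527474 and chrI:527624-527713 (ASM294v3, + strand).

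snoZ8: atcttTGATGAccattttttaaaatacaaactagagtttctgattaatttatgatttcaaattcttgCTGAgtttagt

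snoZ7: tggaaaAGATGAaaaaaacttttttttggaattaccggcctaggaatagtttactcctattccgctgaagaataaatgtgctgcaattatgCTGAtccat

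snoZ5: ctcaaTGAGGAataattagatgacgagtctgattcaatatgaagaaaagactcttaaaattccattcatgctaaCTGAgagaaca

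snoZ4: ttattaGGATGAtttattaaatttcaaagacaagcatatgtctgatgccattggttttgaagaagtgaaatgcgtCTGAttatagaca

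snoZ3: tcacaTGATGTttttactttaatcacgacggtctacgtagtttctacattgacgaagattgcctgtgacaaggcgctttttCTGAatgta

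snoZ5 was at 129, 140 and 132 scaled FPKM in clr3D, against 86.4, 102 and 86.7 in WT (log2 fold change 0.54, SE 0.1, adjusted p = 0.00072). snoZ7 was at 160, 180 and 168 in clr3D, against 117, 146 and 124 in WT (0.39, SE 0.07, adjusted p = 0.0013). For both, every clr3D library lay above every WT library. snoZ4 was at 257, 278 and 262 in clr3D, against 196, 231 and 206 in WT (0.33, SE 0.06, adjusted p = 0.0014). snoZ3 was at 109, 108 and 114 in clr3D, against 79.2, 94.1 and 82.9 in WT (0.37, SE 0.08, adjusted p = 0.002). snoZ8, at 63.0, 79.4 and 69.0 in clr3D and 44.5, 64.4 and 40.5 in WT, was the only one of the 5 whose groups overlapped (0.51, SE 0.15, adjusted p = 0.017). Its call was lost without the third WT library (adjusted p = 0.086), the first WT library (adjusted p = 0.066) or the second clr3D library (adjusted p = 0.071).

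The share of the host transcript's reads that came from the 5 snoRNAs was also higher in clr3D. The 5 snoRNAs held 69.4%, 72.4% and 70.9% of the reads of the snoZ gene in clr3D, against 61.2%, 66.1% and 59.1% in WT. The remaining reads of the gene are given in scaled RPM, which sets reads against library depth but not length. They were at 28.4, 26.7 and 27.3 RPM in clr3D, against 29.7, 29.3 and 33.7 RPM in WT. All clr3D libraries were thus above WT in the first measure and below WT in the second. The snoZ gene as a whole was called higher (log2 fold change 0.21, adjusted p = 0.0014), and that value includes the snoRNA reads.

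**Figure D5:**
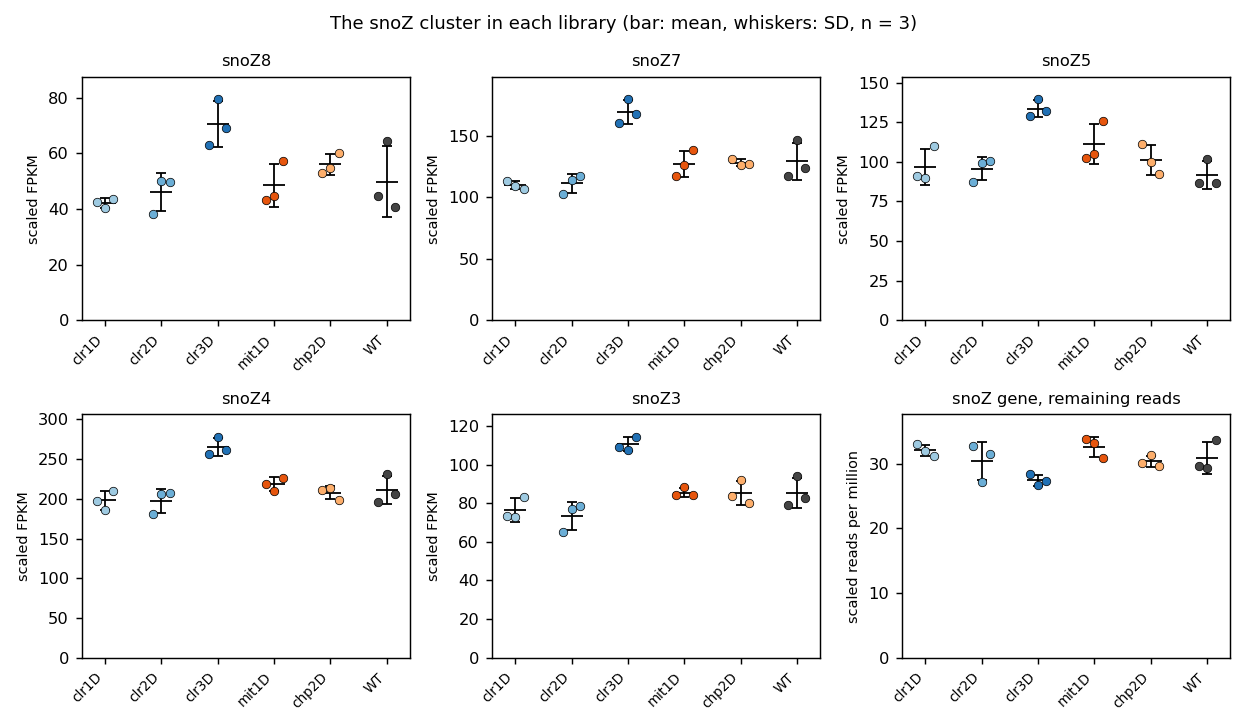
Scaled FPKM of the 5 clustered snoRNAs in each library, and the snoZ gene's remaining reads in scaled RPM (points; bar and whiskers: mean and SD, n = 3; axes from 0). The clr3D points are the highest for snoZ7, snoZ5, snoZ4 and snoZ3, while the remaining reads of clr3D, 26.7 to 28.4 RPM, lie below the 29.3 to 33.7 of WT.

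Of the 10 snoRNAs in introns of protein-coding genes, 5 rose in clr3D (50%, against 14.9% of all genes higher). snoR47 was at 50.05, 62.2 and 51.5 scaled FPKM in clr3D, against 33.2, 41.3 and 35.7 in WT, with no overlap (log2 fold change 0.56, SE 0.09, adjusted p = 0.00032). Its host fta3, a kinetochore gene, was called higher by 0.13. snoR38 was at 94.4, 86.9 and 116 in clr3D, against 68.4, 77.4 and 70.2 in WT (0.45, SE 0.12, adjusted p = 0.011), and its host SPAC29A4.02c was at 0.05. The snoR38 call was lost without the third clr3D library, the highest (adjusted p = 0.059). The 3 others were snoU24b, described above, and snoU18 and snoR54, named after their values were seen, which rose by 0.30 and 0.26 on the log2 scale. Their hosts ero11, for disulfide formation in the endoplasmic reticulum, and gua1, for guanine nucleotide synthesis, were called higher by 0.11 and 0.14. Differences between snoRNA and host were not tested. Outside the C/D class, snR5, also named after its values were seen, was called higher in clr3D (0.24, adjusted p = 0.047).

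In clr1D and clr2D the called changes were small, and all were lower. snoZ16 was at 167, 155 and 154 scaled FPKM in clr1D and 172, 136 and 162 in clr2D, against 209, 196 and 244 in WT, with no overlap. In log2 terms it changed by -0.44 (SE 0.1, adjusted p = 0.0078) in clr1D and -0.47 (SE 0.1, adjusted p = 0.0069) in clr2D. snoU24 was at 35.0, 26.3 and 31.2 in clr1D and 27.1, 29.4 and 31.8 in clr2D, with log2 fold changes of -0.39 (adjusted p = 0.018) and -0.45 (adjusted p = 0.011). snR51b was at 159, 163 and 150 in clr1D and 164, 148 and 150 in clr2D, against 185, 192 and 178 in WT, with log2 fold changes of -0.23 (adjusted p = 0.013) and -0.26 (adjusted p = 0.0076). It gives 67.5% of the reads of the non-coding RNA SPNCRNA.723 in the first WT library, which was called lower by -0.22 in clr1D and -0.26 in clr2D.

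The other members called in clr1D, beside snu2 and snoR56 above, were snR40 (-0.36), snR92 (-0.34), snoZ15 (-0.31), snR90 (-0.30), snoR58 (-0.27), snoZ7 (-0.23) and snR101 (-0.13), by their log2 fold changes. Of these, snR92 had the lowest adjusted p, 0.0051, at 67.2, 75.4 and 70 scaled FPKM in clr1D, against 81.1, 88.1 and 101 in WT. The other members called in clr2D were sno12 (-0.41), snR91 (-0.36) and snoR02 (-0.31). Counts for these deletions rested on single libraries: in clr1D 12 became 4 without the third WT library and 6 without the third clr1D library, and in clr2D 7 became 4 without the third WT library, 16 without the first WT library, and 3 without the second or the third clr2D library. Over all genes, replicate numbers pair the libraries of clr1D, clr2D, clr3D and WT, a pairing that the fit behind the calls leaves out. Over the members alone, this pairing was not seen in every pair of libraries. With the replicate number as a block in these 12 libraries, 20 members were called in clr1D, 19 in clr2D and 21 in clr3D. The share of all genes called in that blocked fit is not given here, so these counts are not read as particular to the members.

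Place in the genome and length gave like splits. In mit1D, 14 of the 23 members with no host gene fell, 8 of the 13 antisense to an exon, 4 of the 14 in an exon of a non-coding gene, and 2 of the 10 in an intron. By transcript length, 19 of the 29 members over 120 bases and 9 of the 31 up to 120 bases fell in mit1D, and 14 and 9 in chp2D. In clr3D, 11 of the 31 members up to 120 bases rose and 1 of the 29 longer ones. Among all genes, 12.5% fell in mit1D, 10.7% fell in chp2D and 14.9% rose in clr3D. Across the 60 members, the log2 fold change and log2 length had a Spearman rho of -0.5 in mit1D, -0.34 in chp2D and -0.47 in clr3D, over genes of the same libraries. Host, class and length cannot be told apart here.

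Of the 60 members, 41 overlap another gene of the table. Beside those named above, the pairs within introns are snoR39a in rlp7, snoR39b in rpl701, snoR58 in ade4 and snoZ15 in pfd1. Those on protein-coding genes outside introns are snR97 with rad8, snR36 with psd1, snr79 with gpi12, sno52 with taf9, snoR02 with alg3 and snr62 with SPAC4H3.12c. Those on non-coding genes are snR41 and snR70 with SPNCRNA.723, snR97 with SPNCRNA.617, snoZ16 with SPNCRNA.727, snR98 with SPNCRNA.814, snR91 with SPNCRNA.901, snR90 with SPNCRNA.1038, snoZ30 with SPNCRNA.1483, snR92 with SPNCRNA.1487, sno16 with SPNCRNA.1597, snoR68 with SPNCRNA.1650, snR3 with SPNCRNA.1394 and snR95 with SPNCRNA.1436. Member reads as a share of the other gene's ran from 0.263% for snoR38 to 99.9% for snR30, leaving out snu3, which had more reads than tif308. Reads from an overlapping pair cannot be told apart.

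Genes for proteins of the same particles were called at shares mostly near or below those of all genes. Of 19 genes for snoRNP proteins and assembly factors, 5 rose in mit1D (26.3%, against 14.7% of all genes higher and 27.2% changed) and 5 in chp2D (26.3%, against 12% higher and 22.6% changed). In clr1D 5 fell (26.3%, against 8.29% of all genes lower and 17.6% changed), and 2 fell in each of clr2D and clr3D (10.5%, against 4.99% and 14.1% of all genes). gar1, a core protein of H/ACA particles, was at 325 ± 27.2 scaled FPKM in mit1D and 314 ± 8.43 in chp2D, against 189 ± 18.3 in WT (SD, n = 3). It rose by 0.78 (SE 0.16, adjusted p = 0.0027) in mit1D and by 0.74 (SE 0.16, adjusted p = 0.0049) in chp2D. hit1, for assembly of C/D particles, rose by 0.22 and 0.28 in the same order, rvb1, an ATPase of the same pathway, by 0.16 in each, naf1, for H/ACA assembly, by 0.13 in mit1D, and nop56, a C/D core protein, by 0.13 in chp2D. The H/ACA core proteins nhp2 and cbf5, the pseudouridine synthase, fell in clr1D (log2 fold changes -0.18 and -0.16) and clr2D (-0.18 and -0.12). nop58 (-0.10) and utp7 (-0.09) fell in clr1D, and bcd1 (-0.14) and mpp10 (-0.08) in clr3D.

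Of 35 genes for snRNP, Sm and Lsm proteins, 3 rose and 4 fell in mit1D, 1 rose and 3 fell in chp2D, 3 rose and 5 fell in clr3D, 2 rose and 1 fell in clr1D, and 2 rose in clr2D. These are 20% of the list changed in mit1D, 11.4% in chp2D, 22.9% in clr3D, 8.57% in clr1D and 5.71% in clr2D, against 27.2%, 22.6%, 29%, 17.6% and 12.3% of all genes in the same order. usp103, the U1-C protein of the U1 snRNP, was at 40.6 ± 0.778 scaled FPKM in mit1D and 22 ± 0.876 in chp2D, against 23.9 ± 0.798 in WT (SD, n = 3). It was 1 of the 11 genes that differed between mit1D and chp2D (log2 fold change 0.85, SE 0.04, adjusted p = 3.4e-09). By its systematic name, SPBP35G2.09, it stands next to mit1, SPBP35G2.10, the gene deleted in mit1D. The part of the deleted locus in this rise was not tested. The U2 proteins lea1 and prp10 fell in mit1D (-0.17 and -0.15) and chp2D (-0.14 and -0.12), prp10 rose in clr3D (0.26), and the U5 helicase brr2 rose in mit1D (0.21). smn1, for snRNP assembly, fell in clr3D (-0.37), and lsm8, of the ring on U6, rose in clr1D (0.22), clr2D (0.19), clr3D (0.18) and chp2D (0.16).

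Of 41 genes for nuclear RNA processing and decay, 7 rose and 3 fell in mit1D, 4 rose and 3 fell in chp2D, 5 rose and 9 fell in clr3D, 1 rose and 3 fell in clr1D, and 3 fell in clr2D. The share changed was 24.4% in mit1D, 17.1% in chp2D, 34.1% in clr3D, 9.76% in clr1D and 7.32% in clr2D, against the same shares of all genes as above. pac1, the RNase III that processes snoRNA and snRNA precursors, rose by 0.21 in mit1D and 0.23 in chp2D, and mtr4, the helicase of the nuclear exosome, by 0.26 and 0.21. dis3, a nuclease of the exosome, fell in clr1D (-0.17), clr2D (-0.16) and clr3D (-0.18), and mmi1, which marks meiotic RNAs for decay, in clr1D (-0.21) and clr2D (-0.18). The medians of the 3 lists lay between -0.06 and 0.02 in all 5 deletions.

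The genes whose pattern over the 18 libraries was most like that of each snRNA and U3 gene were taken by Pearson correlation of log2 scaled FPKM. snu1 and snu2 were most like each other (r = 0.936), and snu1 was next to snu32 (0.913) and rps3001 (0.896). snu2 was next to pdh1 (0.921) and plr1 (0.919). snu32 was next to the non-coding RNAs SPNCRNA.507 and SPNCRNA.808 (0.955 each) and sno16 (0.944), and snu6 to the same non-coding RNAs (0.931 each) and snR98 (0.925). snu3 was next to tlc4 (0.838), rpl1102 (0.816) and rpl902 (0.801), snu4 to SPNCRNA.901 (0.832), the gene that overlaps snR91, to snR91 (0.832) and to taf9 (0.831), and snu5 to ups2 (0.899), thp1 (0.892) and cfh2 (0.888). These values describe libraries that share genotypes and depth.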

How the data were processed

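RNA was measured in 18 libraries: clr1D, clr2D, clr3D, mit1D, chp2D and WT, with 3 biological replicates each, as given in the labels. Per the labels' protocols, rRNA was removed with Ribo-Zero Gold (Yeast) and libraries were made with a TruSeq Stranded Total RNA kit. Per the submitters' processing notes, GSNAP and the build ASM294v2 were used. No source used here names the counting program or its strand setting (not given in the sources used). The deposited table holds FPKM per gene, made by the authors. It also has 3 sample columns that match no label, and these were not used.

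FPKM times transcript length gave whole reads within 0.1 read for 99.93% to 100% of values, and gave the depth. FPKM was divided by a median-ratio factor per library. limma 3.58.1 (R 4.3.3; lmFit, contrasts.fit, eBayes with trend) was run on log2(scaled FPKM + 1) for the 6693 genes that reached FPKM 1 in 3 or more libraries. p-values were 2-sided and adjusted by Benjamini-Hochberg within each comparison over all these genes. The fit was tested on simulated data. limma voom on the recovered reads, other scalings, another pseudocount, no filter, the compared groups alone, a replicate block and left-out libraries were the alternatives. How the replicates relate beyond the word biological is not stated, so p-values measure the spread between these samples.

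Replicate numbers were checked by the correlation of deviations from group means. In clr1D, clr2D, clr3D and WT, whose library names share a prefix per number, all 18 same-number pairs had r of 0.25 to 0.704. From the values over all genes, the pairing was taken to hold in these groups, and not for mit1D and chp2D. Same-number pairs of mit1D and chp2D with each other and with the other groups had r of -0.134 to 0.125 over all genes. The fit that gave the calls holds no replicate term, so its p-values in the clr deletions ignore this pairing.

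Sequences and products come from RefSeq (ASM294v3). All 60 members matched by locus tag, 51 with the same interval as in the table. Motif classes were assigned from box C with at most 1 mismatch in the first 25 bases and CTGA in the last 13. Members and lists were chosen with earlier results of these data known. Text names every SPSNRNA member, the 3 highest and 3 lowest in WT, all called members of a comparison with WT where at most 12 were called and otherwise the 6 largest rises and falls, members overlapping other genes, up to 4 called genes per list and comparison, and the 3 genes most like each snRNA and U3 gene. Members named otherwise are said to be chosen after their values were seen.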

Additional observations from a re-analysis of the deposited data

How the results depend on the processing

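Every member called in a comparison kept its direction there under all alternatives tried, and members not called were not followed in this way. The count of members called in mit1D, chp2D, clr3D and mit1D and chp2D against the clr deletions stayed within 1.5 times of that reported under each, and between mit1D and chp2D it was 0 throughout. In clr1D, 12 became 6 with FPKM as deposited, 19 when scaled on short genes, 6 in the compared groups alone, and 20 with a replicate block in the 12 libraries of clr1D, clr2D, clr3D and WT, an alternative chosen after seeing the data. In clr2D, 7 became 15 when scaled on short genes, 11 with voom on recovered reads, 4 in the compared groups alone, 14 with a replicate block over all 18 libraries and 19 with the block in the 12 libraries. With the block over all libraries 15 members were called in clr1D, 17 in clr3D, 33 in mit1D, 27 in chp2D and 0 between mit1D and chp2D. When 1 library was left out, the counts ranged over 23 to 33 for mit1D, 18 to 28 for chp2D, 11 to 16 for clr3D, 4 to 14 for clr1D, 3 to 16 for clr2D, 0 to 0 between mit1D and chp2D, and 30 to 35 for mit1D and chp2D against the clr deletions. The causes were not tested, and these counts stand without the share of all genes called under each alternative. Calls that held in every alternative and without each library numbered 22 of 31 in mit1D, 17 of 25 in chp2D, 7 of 14 in clr3D, 2 of 12 in clr1D (snoR56 and snoZ16) and 2 of 7 in clr2D (snR51b and snoU24). Kept calls were counted over the members only, so these shares are not read as particular to them. Over all genes, the share of calls that were higher was 79.4% in clr1D with FPKM as deposited and 37.9% when scaled on short genes, against 52.9%. In clr2D these were 73.2% and 44.1%, against 59.4%, and in clr3D scaling on short genes gave 39.1%, against 51.2%. Depth limits snoR54b, snr62 and snu5 most, with as few as 8, 14 and 26 reads in a library.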
